A study of Mus musculus with 24 samples.

Results

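The Iroquois genes Irx1 to Irx6 encode homeodomain transcription factors of the TALE class and lie in the mouse in a pair of clusters, each holding 3 genes. All 6 were taken by name, out of 22380 protein-coding genes in the mm9 annotation, and all 6 were found in it: Irx1, Irx2 and Irx4 on chromosome 13 (here the IrxA cluster) and Irx3, Irx5 and Irx6 on chromosome 8 (the IrxB cluster). Iroquois factors pattern the neural plate, heart, limb and other organs, and Irx3 and Irx5 are known from the fetal ovary, where they are expressed in pregranulosa cells and act in the contact between granulosa cells and oocytes. Like many developmental regulators, Iroquois genes are classical targets of Polycomb group proteins, which deposit H3K27me3 and hold genes silent. H3K4me3, the mark of Trithorax group proteins, lies at promoters that are active or ready to be activated. A promoter that carries both marks is called bivalent, or poised. The lists used here come from pools of cells and cannot show whether both marks sit in the same cell or on the same allele.

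The study asked how both marks are placed in supporting cells of the gonad before and after sex is determined. ChIP-seq for H3, H3K4me3 and H3K27me3 was carried out on 24 samples, 2 replicates for each mark in each of 4 populations of FACS-sorted cells from pooled C57BL/6 x CD1 embryos. The populations were XY and XX gonadal progenitor cells of SF1-eGFP embryos at E10.5, male Sertoli cells of Sox9-CFP embryos at E13.5, and female cells of TESM-CFP embryos at E13.5, labelled granulosa cells and called pregranulosa cells here. The SF1-eGFP reporter follows the early gonadal factor Nr5a1, Sox9-CFP follows a Sertoli factor, and TESM-CFP carries a mutated version of a Sox9 enhancer, so each population is defined by its reporter and not by Irx expression. Each reporter was used at a single stage. Stage, reporter and depth therefore change together between progenitors and E13.5 cells, and their parts in any difference cannot be told apart. Between Sertoli and pregranulosa cells sex and reporter change together in the same way.

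The 8 lists of enriched regions analysed here, H3K4me3 and H3K27me3 in each population, are described in the series record as made from both replicates, although the published methods describe peak calling on each replicate. They were taken as pooled here. There is thus 1 list per condition, no spread between replicates can be given, and every difference below is a description of these lists without a test. For H3K4me3 the headers gave 10162534 tags in XY progenitors, 49254553 in XX progenitors and 31104760 in Sertoli cells. For H3K27me3 they gave 6470151, 33185400 and 44446456 tags in the same order. The depth and the calling settings of the pregranulosa lists are unknown, which bears on every width and cover compared with theirs. After overlapping peaks had been joined, the H3K4me3 lists held 37849 regions in XY progenitors, 41786 in XX progenitors, 39053 in Sertoli cells and 44349 in pregranulosa cells, with median widths between 1255 and 1697 bp. The H3K27me3 lists held 9693, 9309, 13313 and 12609 regions, covering 90.9, 144, 158 and 173 Mb. Of the H3K27me3 cover 61.6 Mb in XX progenitors and 43.1 Mb in pregranulosa cells lay on the X chromosome, against 1.19 Mb in XY progenitors and 1.95 Mb in Sertoli cells. On the autosomes the lists covered 89.7, 82.2, 156 and 130 Mb in XY progenitors, XX progenitors, Sertoli and pregranulosa cells. Totals over all chromosomes are therefore not a like comparison between the sexes, and the clusters are set beside their own chromosomes below. The shallow XY progenitor list covered the least for H3K4me3.

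The labels were first checked at promoters of known marker genes, a promoter being the transcription start site (TSS) with 2 kb on each side and counted as marked when at least 1 bp was covered. Of 5 Sertoli genes (Sox9, Amh, Dmrt1, Fgf9, Dhh), 0 were bivalent in Sertoli cells and 5 carried H3K4me3 alone, whereas all 5 were bivalent in pregranulosa cells. Of 5 pregranulosa genes (Foxl2, Wnt4, Rspo1, Fst, Bmp2), 5 were bivalent in Sertoli cells and 2, Foxl2 and Fst, in pregranulosa cells, where the other 3 carried H3K4me3 alone. Of the early gonad genes Wt1, Gata4, Nr5a1, Lhx9 and Emx2, all 5 were bivalent in both progenitor populations, 2 in Sertoli cells and 0 in pregranulosa cells. Markers of other cells the sort could hold also gave some promoters with H3K4me3 and no H3K27me3. Among 5 germ cell genes that was 1, 1, 1 and 2 in XY progenitors, XX progenitors, Sertoli and pregranulosa cells, with Dazl among them in each. Among 4 endothelial genes it was 0, 0, 0 and 1, among 4 blood genes 0, 0, 0 and 1, and among 4 steroidogenic genes 1, 3, 2 and 3. Their part in the values below was not tested.

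Every Irx promoter was bivalent in every population. H3K4me3 lay at 6 of 6 Irx promoters in XY progenitors, XX progenitors, Sertoli cells and pregranulosa cells, against 64.2%, 66.0%, 64.9% and 66.3% of all protein-coding promoters. H3K27me3 also lay at 6 of 6 in each, against 23.1%, 24.8%, 23.5% and 23.6%. Both marks together were found at 6 of 6 in each, against 20.4%, 22.4%, 18.7% and 20.4% of all promoters. Promoters bivalent in all 4 populations made up 13.6% of the annotation and 6 of the 6 Irx genes. Thus no Irx promoter changed its class between E10.5 and E13.5 or between the sexes, unlike most of the marker genes above, and the populations differed in how far each mark reached.

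H3K27me3 covered the whole 4001 bp window at all 6 Irx promoters in all 4 lists, a state found at 10.2% of all promoters. In addition the TSS itself lay inside an H3K4me3 region at all 6 in all 4 lists. Both conditions held together in every population for 7.79% of protein-coding promoters. H3K4me3 was narrower than H3K27me3 at every Irx gene, so that each promoter was a stretch with both marks inside a longer stretch of H3K27me3 alone, with an exception at Irx3 in pregranulosa cells described below.

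Other TALE genes gave a mixed picture. Mkx, a tendon regulator, was bivalent in all 4 populations. Meis2, which encodes a cofactor of Hox proteins, was marked by H3K27me3 in both E13.5 populations (3954 bp in Sertoli and 4001 bp in pregranulosa cells) and in neither progenitor population. Meis3 and Pknox2 carried H3K27me3 in Sertoli cells alone. Among the 39 Hox genes, also clustered homeobox genes, 25, 24, 34 and 33 promoters were bivalent in XY progenitors, XX progenitors, Sertoli and pregranulosa cells, and 20 were bivalent in all 4.

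The IrxA cluster ran from Irx1 at chr13:72095680-72101171 on the minus strand, through Irx2 at chr13:72766245-72771644, to Irx4 at chr13:73397945-73407068, both on the plus strand, and spanned 1.31 Mb. Irx1 (ENSMUSG00000060969.7), which acts in lung, limb and heart development, had 2280 bp of its promoter window covered by H3K4me3 in XY progenitors, 3344 in XX progenitors, 1390 in Sertoli and 2507 in pregranulosa cells. The Sertoli value was the lowest of the 4, below that of the far shallower XY progenitor list. Its H3K27me3 region was 36957, 32511, 31348 and 35563 bp wide in the same order and held the whole gene each time. The downstream border of that region hardly moved, lying 18824, 18871, 18822 and 18981 bp beyond the TSS, while the upstream border lay between 12525 and 18132 bp before it.

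Irx2 (ENSMUSG00000001504.8), in the middle of the cluster, had 2379, 3730, 2851 and 2388 bp of the window under H3K4me3 in XY progenitors, XX progenitors, Sertoli and pregranulosa cells. Here pregranulosa and XY progenitor cells were close to each other and XX progenitors highest. The H3K27me3 regions around it measured 32171, 36340, 35145 and 39285 bp. Irx4 (ENSMUSG00000021604.7), known for its role in the ventricular heart muscle, had the least H3K4me3 of the 6 promoters in XY progenitors, 1001 bp, a region as narrow as almost any on that list, so that 5 of 6 Irx promoters keep H3K4me3 there when regions of this width are left out, beside 2560 bp in XX progenitors, 1834 in Sertoli cells and 2126 in pregranulosa cells. Its H3K27me3 regions were of near equal width, 29969, 32049, 32584 and 31993 bp. In the gene body Irx4 carried a second stretch of H3K4me3. All H3K4me3 inside the 9124 bp gene, the promoter's part included, covered 44.6% of it in XY progenitors and 66.0% in XX progenitors. The share was 37.7% in Sertoli cells and 73.7% in pregranulosa cells. In XX progenitors the second stretch and the promoter were 1 region of 6585 bp, whereas in pregranulosa cells a separate region of 4554 bp began inside the gene.

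Across the IrxA cluster H3K27me3 covered 310 kb (23.6%) in XY progenitors, 255 kb (19.4%) in XX progenitors, 255 kb (19.4%) in Sertoli cells and 287 kb (21.9%) in pregranulosa cells. Chromosome 13 as a whole was covered to 3.16%, 2.86%, 5.65% and 5.01% in the same lists. The cluster was thus covered several times more densely than its chromosome in each population, and XY progenitors, with the shallowest list of known depth, had the highest value. H3K4me3 covered 1.64%, 3.51%, 1.96% and 2.91% of the cluster, against 2.40%, 3.38%, 2.91% and 3.38% of the chromosome, so this mark was denser there than on the chromosome in XX progenitors alone, by a small margin. The 665 kb between Irx1 and Irx2 carried H3K27me3 over 11.8%, 9.55%, 14.6% and 14.2% of its length. The 626 kb between Irx2 and Irx4 carried it over 33.7%, 27.4%, 22.0% and 27.5%. The Irx2 to Irx4 interval thus held more H3K27me3 than the Irx1 to Irx2 interval in every list, with the widest gap in XY progenitors and the narrowest in Sertoli cells.

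**Figure D1:**
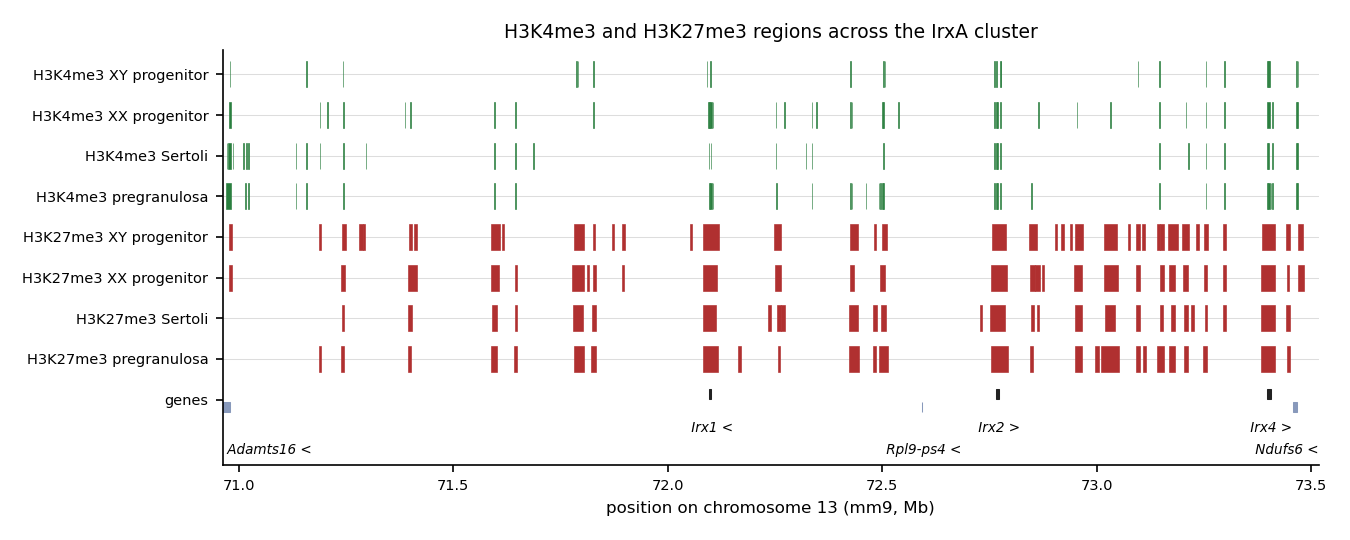
Regions of H3K4me3 (green) and H3K27me3 (red) in the 4 populations along chromosome 13 (position in Mb, mm9), 1 track per list, with Irx genes in black, other genes in blue and arrowheads for the strand. The broad H3K27me3 regions at Irx1, Irx2 and Irx4, between 29969 and 39285 bp wide, recur in every track, and the stretch between Irx1 and Irx2 is sparsely covered.

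The IrxB cluster ran from Irx3 at chr8:94322428-94325553 on the minus strand, through Irx5 at chr8:94881695-94885351, to Irx6 at chr8:95198188-95204855, both on the plus strand, and spanned 0.882 Mb. Irx3 (ENSMUSG00000031734.8) and Irx5 (ENSMUSG00000031737.8), the pair known from granulosa cells, carried the broadest H3K4me3 of the family. H3K4me3 filled the Irx5 window of 4001 bp in all 4 lists, and the Irx3 window in 3 of them, with 3908 bp in XY progenitors. The region holding the Irx3 TSS was 3635 bp wide in XY progenitors, 10162 in XX progenitors, 6247 in Sertoli cells and 11142 in pregranulosa cells. That at the Irx5 TSS was 6016, 6996, 6385 and 15046 bp wide. By width the pregranulosa region at Irx5 ranked within the top 15 of the 44349 H3K4me3 regions of its list and that at Irx3 within the top 48. In Sertoli cells the regions ranked within the top 387 (Irx5) and the top 421 (Irx3) of 39053. Pregranulosa cells thus had the widest H3K4me3 region at both genes and Sertoli cells a narrower one.

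The order among the wider regions depended partly on short gaps. In XX progenitors a further H3K4me3 region of 5704 bp began just downstream of Irx5, and merging regions within 1 kb gave a width of 13235 bp, close to the unchanged 15046 bp of pregranulosa cells. The same step widened the XY progenitor region at Irx3 to 8128 bp. In Sertoli cells it left 6247 bp at Irx3 and 6385 bp at Irx5, and XY progenitors kept 6016 bp at Irx5. Merging within 5 kb gave 9130 bp in Sertoli cells and 8128 bp in XY progenitors at Irx3, and 6385 and 11215 bp at Irx5. Which XY population was narrower thus depended on the merging, while pregranulosa cells stayed widest at both genes.

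At Irx3 the population with the widest H3K4me3 region had the narrowest H3K27me3 region. The latter measured 25370 bp in XY progenitors, 25715 in XX progenitors, 23519 in Sertoli and 14518 in pregranulosa cells. The upstream reach was similar, with 14895, 14612, 11671 and 11853 bp before the TSS. The downstream reach was 10474, 11102 and 11847 bp in the first 3 and 2664 bp in pregranulosa cells, where the region ended inside the gene and left the 3′ end without H3K27me3. There 85.3% of the 3126 bp gene was covered, against 100% in the other lists. Within 10 kb of the TSS on each side H3K27me3 covered 100% in the other 3 populations and 63.3% in pregranulosa cells. The pregranulosa H3K4me3 region at Irx3 ran past that border, so that 8234 of its 11142 bp carried both marks, while in the other 3 populations the whole region did.

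Merging across gaps left this difference in place: the pregranulosa value stayed at 14518 bp when regions within 5 kb were merged, while the XX progenitor and Sertoli values grew to 50175 and 53204 bp. At Irx5, which controls ion channel expression in the heart and bipolar cell identity in the retina, H3K27me3 was 39983, 32399, 39088 and 29366 bp wide in XY progenitors, XX progenitors, Sertoli and pregranulosa cells, and held the whole gene in each. The pregranulosa region was the shortest of the 4 at Irx5 as well, but with regions within 5 kb merged it measured 38408 bp and that of XX progenitors 32399 bp. A shorter pregranulosa region under every alternative was thus seen at Irx3 only.

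**Figure D2:**
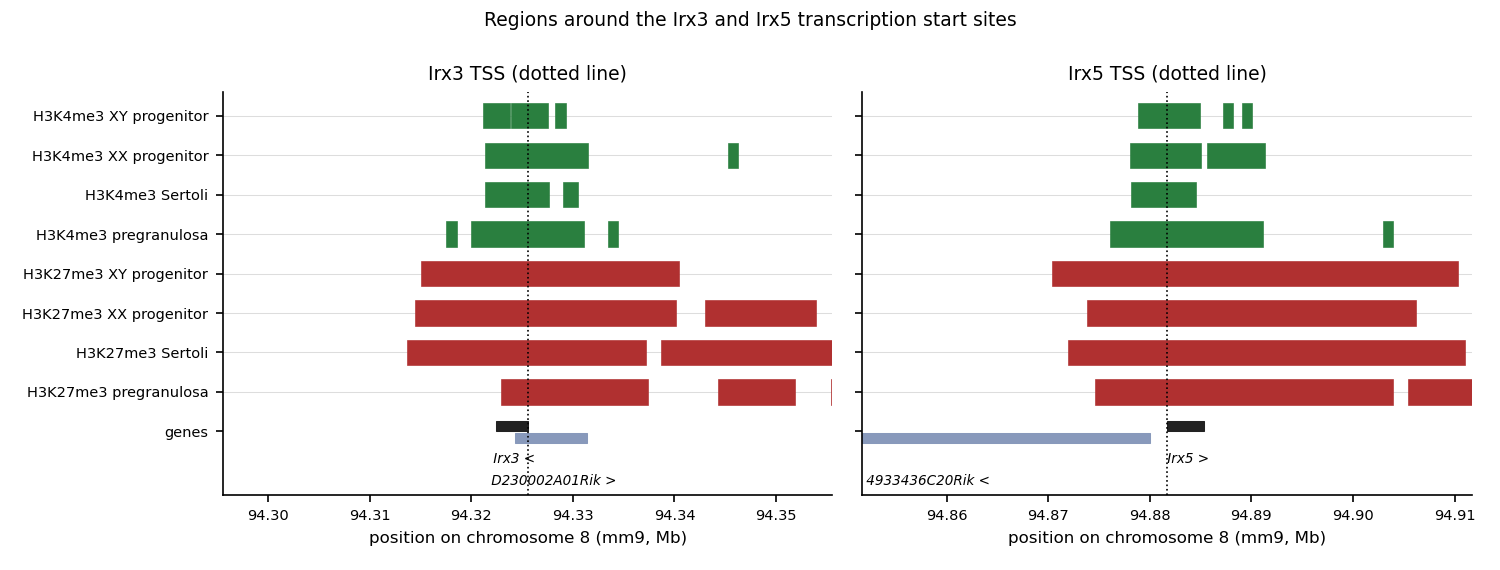
Regions of H3K4me3 (green) and H3K27me3 (red) within 30 kb of the Irx3 TSS (left) and the Irx5 TSS (right) on chromosome 8 (position in Mb, mm9), 1 track per list, with Irx genes in black, noncoding neighbours in blue and the TSS as a dotted line. In pregranulosa cells H3K4me3 is widest (11142 bp at Irx3 and 15046 bp at Irx5) and H3K27me3 stops 2664 bp downstream of the Irx3 TSS.

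Irx6 (ENSMUSG00000031738.7), which marks a class of retinal bipolar cells, stood apart from its cluster neighbours. Its H3K4me3 window cover differed little between populations, 2817, 2581, 2655 and 2939 bp in XY progenitors, XX progenitors, Sertoli and pregranulosa cells. Its H3K27me3 region was the narrowest of the 6 genes in both progenitor populations and in Sertoli cells, at 15597, 15112 and 23223 bp, and measured 18769 bp in pregranulosa cells, where that at Irx3 was narrower. In the lists as joined, Irx6 was wider in both E13.5 lists than in both E10.5 lists. A further region of 5001 bp lay within 5 kb downstream in XY progenitors and in Sertoli cells. Merged with it, the XY progenitor region would run over chr8:95190566-95215346 and be wider than that of pregranulosa cells. As joined, Irx3 was narrower in both E13.5 lists than in both E10.5 lists. Irx5 was narrower and Irx2 wider in each E13.5 list than in the progenitors of the same sex. Irx1 went opposite ways, narrower in Sertoli cells than in XY progenitors and wider in pregranulosa cells than in XX progenitors. Irx4 was wider in Sertoli cells than in XY progenitors and nearly the same in XX progenitors and pregranulosa cells (32049 and 31993 bp). At Irx3 and Irx5 the direction turned in 1 lineage each when regions within 5 kb were merged.

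Annotated noncoding genes of the IrxB cluster shared these promoters. The lincRNA D230002A01Rik (chr8:94324314-94331438, plus strand) starts inside Irx3 and runs antisense across the Irx3 start, and its promoter was bivalent in all 4 populations. Its TSS lay within the H3K4me3 region of Irx3 in every list. 4933436C20Rik (chr8:94849937-94880019, minus strand), labelled protein-coding in this annotation and listed by RefSeq as the noncoding gene Crnde, lies head to head with Irx5. It was bivalent in all 4 populations too, with H3K4me3 over 3133, 3959, 3862 and 4001 bp. In both cases 1 H3K4me3 region spanned both start sites, so the lists cannot assign the mark to either gene. The U6 snRNA gene between Irx3 and Irx5 and the pseudogene-like Rpl9-ps4 between Irx1 and Irx2 carried neither mark in any list. The microRNA gene Mir466f-4, in the wide interval left of Irx1, was bivalent in all 4, and the pseudogene Gm10263 right of Irx4 was unmarked.

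Across the IrxB cluster H3K27me3 covered 338 kb (38.3%) in XY progenitors, 322 kb (36.4%) in XX progenitors, 426 kb (48.2%) in Sertoli cells and 316 kb (35.9%) in pregranulosa cells, against 4.20%, 3.95%, 8.61% and 6.86% of chromosome 8. The Sertoli value was the highest, as was the Sertoli share of the whole chromosome. Relative to the chromosome the cluster was covered 9.13, 9.24, 5.60 and 5.22 times as densely, so both E13.5 populations stood lower than both progenitor populations. With each list cut, widest regions first, to the length of the shortest list, Sertoli cells still had 45.5% and pregranulosa cells 33.4%. The Irx3 to Irx5 interval was covered over 49.4%, 48.7%, 58.9% and 44.7% of its 556 kb, and the Irx5 to Irx6 interval over 50.2, 37.5, 84.4 and 54.8 kb of its 313 kb. Of the Sertoli cover 77516 bp (18.2%) was called in no other population, against 35017 bp in XY progenitors, 10307 in XX progenitors and 6270 in pregranulosa cells. Such shares were not computed over chromosome 8, so these counts have no background. Sertoli cells shared 68.3% of their IrxB cover with pregranulosa cells, and 55.0% over chromosome 8. Sertoli cells thus had more H3K27me3 than pregranulosa cells across both intervals, while the promoter windows were filled in both.

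H3K4me3 cover was lower in both XY populations than in both XX populations in each cluster, and so was the cover of the whole lists. The lists covered 62.4 and 75.2 Mb in XY progenitors and Sertoli cells, and 89.0 and 89.4 Mb in XX progenitors and pregranulosa cells. In IrxB the mark covered 3.20% in XY progenitors and 3.27% in Sertoli cells, but 6.36% in XX progenitors and 6.32% in pregranulosa cells. Chromosome 8 was covered to 2.71%, 3.20%, 3.99% and 3.85% in the same order. Both XX populations thus stood above their chromosome-wide share by more than both XY populations did. Relative to its chromosome IrxA showed the same order. It was covered 0.683 and 0.672 times as densely in XY progenitors and Sertoli cells, and 1.04 and 0.861 times in XX progenitors and pregranulosa cells. The XY progenitor list is rich in regions of the smallest usual width, with 18231 of 37849 at 1001 bp. When all of these were left out it covered 1.95% of IrxB and 1.03% of IrxA. The XY and XX progenitor libraries also differed in depth, with 10162534 and 49254553 tags. The part of depth in this difference between XY and XX populations was not tested. Sertoli and pregranulosa cells differ in reporter as well as sex, and the pregranulosa depth and settings are unknown, so these parts cannot be told apart. Of the Sertoli H3K4me3 cover in the cluster, 92.3% was also covered in pregranulosa cells, and this shared stretch made up 47.7% of the pregranulosa cover. Over chromosome 8 the corresponding shares were 76.4% and 63.4%. In the cluster 359 bp of H3K4me3 was found in Sertoli cells alone and 15553 bp in pregranulosa cells alone. The progenitor values were 2670 bp (XY) and 14269 bp (XX). These counts were not computed over chromosome 8 either, so they have no background, and the depth of the pregranulosa list is unknown.

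**Figure D3:**
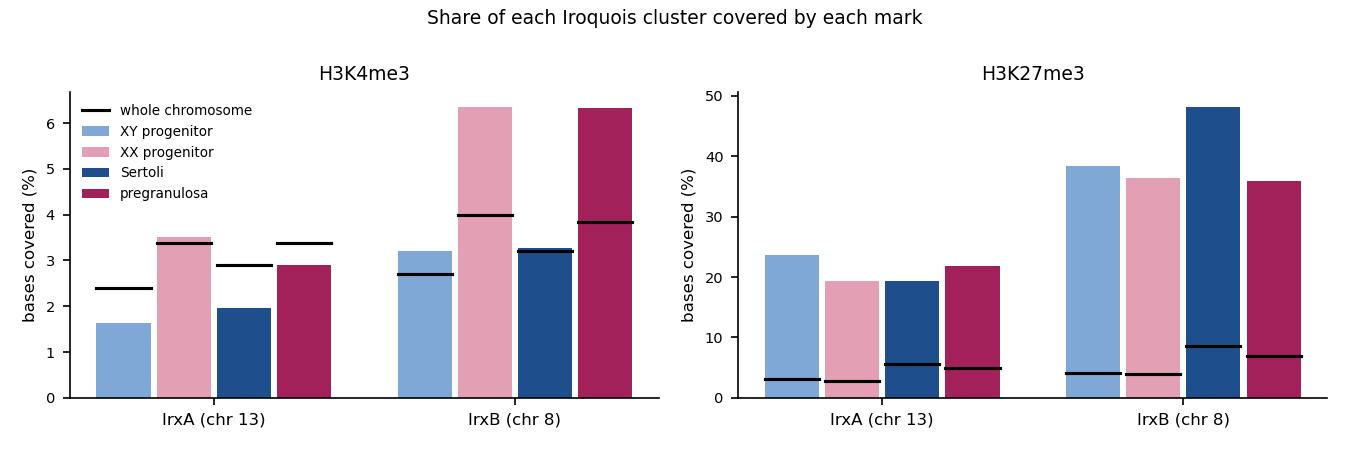
Percent of the bases of the IrxA and IrxB clusters covered by H3K4me3 (left) and H3K27me3 (right), with 1 bar per population and list, no error bars since replicates were pooled, and a black line for the share of the whole chromosome covered by the same list. In IrxB the Sertoli bar for H3K27me3 reaches 48.2% and the H3K4me3 bars of XX progenitors and pregranulosa cells reach 6.36% and 6.32%.

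Much of the cover was common to all populations. In the IrxB cluster 219 kb (24.8% of its length) carried H3K27me3 in all 4 lists, 129 kb in 1 list alone, and 374 kb (42.4%) in none. In the IrxA cluster 176 kb (13.4%) carried it in all 4, 127 kb in 1 alone and 898 kb (68.5%) in none. XY and XX progenitors shared 274 kb of H3K27me3 in IrxB, which was 80.9% of the XY and 85.1% of the XX cover there. In IrxA they shared 219 kb, 70.7% and 85.8%. Over chromosome 8 the shares were 79.4% of the XY and 84.5% of the XX cover, and over chromosome 13 they were 74.6% and 82.4%. The progenitors thus shared about as much in the clusters as on the same chromosomes. Sertoli and pregranulosa cells shared 291 kb in IrxB, 68.3% of the Sertoli and 91.8% of the pregranulosa cover, beside 55.0% and 69.0% over chromosome 8. Nearly all H3K27me3 of pregranulosa cells in IrxB thus lay where Sertoli cells also had it, while the reverse held for a smaller share. In IrxA the order was the other way round, with 81.3% of the Sertoli and 72.3% of the pregranulosa cover shared. Over chromosome 13 the shares were 61.3% and 69.1%. In each cluster the larger share belongs by construction to the list with less cover there, so this order repeats the cover given above.

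**Figure D4:**
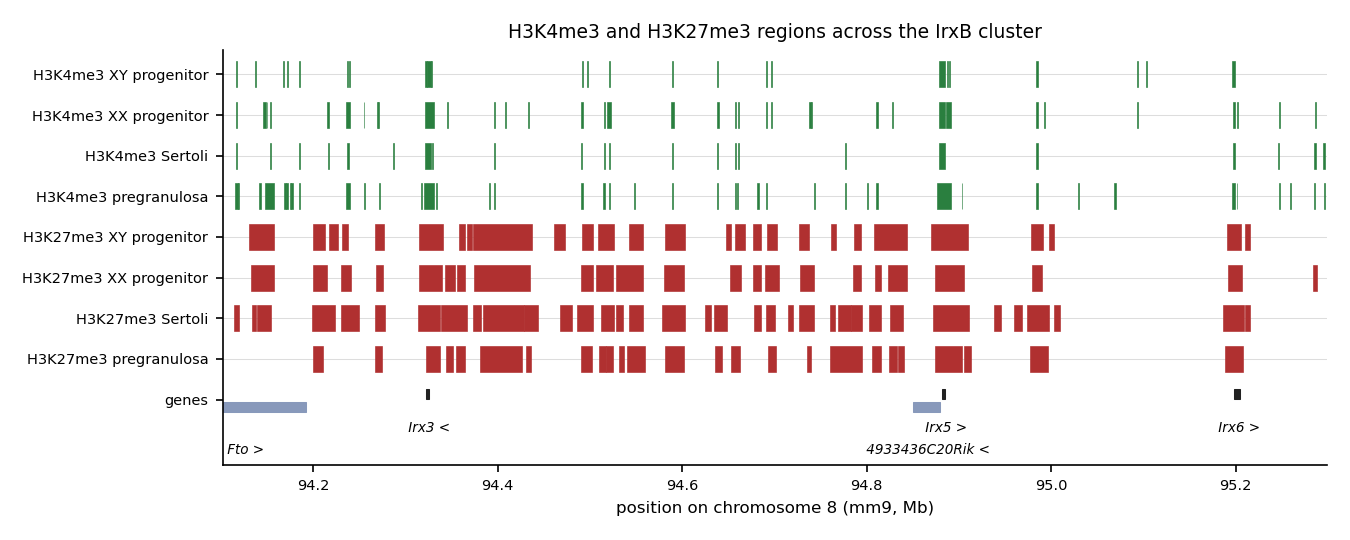
Regions of H3K4me3 (green) and H3K27me3 (red) in the 4 populations along chromosome 8 (position in Mb, mm9), 1 track per list, with Irx genes in black, other genes in blue and arrowheads for the strand. H3K27me3 covers 58.9% of the Irx3 to Irx5 interval in Sertoli cells and 44.7% in pregranulosa cells, and in the last stretch of Fto pregranulosa cells have H3K4me3 and no H3K27me3.

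Both clusters lie in gene-poor intervals, and H3K4me3 was also found there away from annotated start sites. Counting H3K4me3 regions more than 2 kb from the TSS of any annotated transcript, IrxA held 12 in XY progenitors, 20 in XX progenitors, 12 in Sertoli cells and 18 in pregranulosa cells, and IrxB 13, 22, 11 and 22. Of these, 12, 16, 7 and 14 in IrxA and 10, 19, 9 and 16 in IrxB overlapped H3K27me3 of the same population. That was between 58.3% and 100% per list, while over the whole genome 14.8%, 16.8%, 17.7% and 19.3% of such regions did. Joined across populations they formed 31 sites in IrxA, of which 7 were called in all 4 lists and 16 in 1 list alone, and 35 in IrxB, with 6 in all 4 and 18 in 1 alone. Distal sites in the Irx clusters thus mostly overlapped H3K27me3 at least in part. Some of them lie within or beside Irx genes, such as chr13:73400032-73402685 inside Irx4 and chr8:94885592-94891295 just downstream of Irx5. Both of these fall in the H3K27me3 regions of the Irx promoters, and shares without such sites were not computed. The site at chr8:94983702-94985718 between Irx5 and Irx6 carried both marks in all 4 populations, and its G+C share of 57.5% and CpG ratio of 0.710 (observed over expected) were the highest of the IrxB distal sites. It was chosen after its values had been seen.

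The neighbours of the clusters had other patterns than the Irx genes. Left of IrxB lie Fto, Rpgrip1l and Aktip, an RNA demethylase, a ciliary protein and a trafficking adaptor, and all 3 promoters carried H3K4me3 without H3K27me3 in every list. Between Fto and Irx3, 130 kb, H3K27me3 covered 34.8% in XY progenitors, 31.8% in XX progenitors, 49.1% in Sertoli and 14.0% in pregranulosa cells, the largest relative difference of any interval of either cluster between Sertoli and pregranulosa cells. Noncoding stretches within Fto are known to contact the Irx3 promoter in other tissues. In the 3′ part of Fto, about 168 kb from the Irx3 TSS, pregranulosa cells had an H3K4me3 region of 9779 bp (chr8:94147570-94157348), within the top 100 of that list by width, and no H3K27me3 anywhere in the gene. The start of the noncoding transcript Gm3235 (chr8:94145347-94153628, minus strand) lies inside this region, so the mark cannot be assigned to a distal element. Narrower H3K4me3 regions overlapped it in XX progenitors (2791, 1001 and 1001 bp) and in Sertoli cells (1511 bp), but not in XY progenitors. At the same place H3K27me3 regions of 26056 bp in XY progenitors, 25001 in XX progenitors and 15798 in Sertoli cells were called. This stretch lies outside the cluster and was chosen after its values had been seen.

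Right of IrxB, Gm3272 and Gm17310 were unmarked, and Mmp2, a matrix metalloproteinase, carried H3K4me3 alone in both progenitor populations and was bivalent in Sertoli (3460 bp of H3K27me3) and pregranulosa cells (4001 bp). Left of IrxA, Adamts16, a secreted protease, was bivalent in both progenitor populations and carried H3K4me3 alone in both E13.5 populations, while BC018507 had H3K4me3 alone in all 4 and 8030423J24Rik only at E13.5. Right of IrxA, Ndufs6, a subunit of respiratory complex I, had H3K4me3 alone in every list. Mrpl36, a mitochondrial ribosomal protein gene, was bivalent in both progenitor populations, with 746 and 2209 bp of H3K27me3, and Lpcat1, an enzyme of lung surfactant synthesis, in Sertoli cells alone. Of the 12 neighbouring genes 0 were bivalent in all 4 populations, against 13.6% of all promoters, and so few genes cannot show a difference from that share.

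Set beside the Hox clusters, the Irx clusters were long and sparsely marked. The Hoxa, Hoxb, Hoxc and Hoxd clusters span between 0.0968 and 0.174 Mb, and H3K27me3 covered 100%, 89.8%, 96.3% and 100% of them in Sertoli cells, against 19.4% of IrxA and 48.2% of IrxB. In XY progenitors the Hox values were 46.4%, 48.3%, 68.8% and 48.4%, so all 4 Hox clusters were more covered in Sertoli cells than in XY progenitors. IrxB went the same way and IrxA did not. From XX progenitors to pregranulosa cells the Hoxa, Hoxb, Hoxc and Hoxd values went from 43.3%, 47.1%, 68.1% and 50.7% to 100%, 89.0%, 67.4% and 93.1%, where IrxA was higher and IrxB lower in pregranulosa cells. IrxB thus had the same directions as Hoxc in both lineages. In the XX lineage, however, both differences were small, from 36.4% to 35.9% in IrxB and from 68.1% to 67.4% in Hoxc. IrxA, lower in Sertoli cells and higher in pregranulosa cells than in the progenitors, matched no Hox cluster in both. H3K4me3 covered between 21.4% and 86.3% of a Hox cluster and at most 6.36% of an Irx cluster.

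The Irx promoters are rich in CpG, the dinucleotide whose unmethylated clusters attract both Polycomb and Trithorax complexes. Within 2 kb of the TSS the number of CpG was 309 at Irx5, 282 at Irx3, 242 at Irx2, 207 at Irx1, 133 at Irx4 and 130 at Irx6, beside a median of 85 over all protein-coding promoters and of 125 over those bivalent in all 4 populations. The observed over expected CpG ratio was 0.779 at Irx5 and 0.728 at Irx3, higher than at 98.3% and 96.8% of all promoters, and 0.442 at Irx6 and 0.421 at Irx4, higher than at 62.9% and 59.3%. Irx3 and Irx5, with the most CpG, also had the widest H3K4me3 cover in the promoter window in all 4 lists, and Irx4, near the low end in CpG, had the lowest in XY progenitors, XX progenitors and pregranulosa cells. Irx6, with the fewest CpG, broke this order. Its cover in XY progenitors (2817 bp) and pregranulosa cells (2939 bp) was above that of Irx1 and Irx2. It lay between them in Sertoli cells and below both in XX progenitors. With 6 genes this is a description and no more.

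All 6 start sites lie inside regions of both marks in all 4 populations, and the 150 bases directly upstream are shown for 5 of them to compare CG content right at the start. They are given 5′ to 3′ on the strand of the gene from the NCBIM37 (mm9) genome, with each CG in capitals. They were read at chr13:72101172-72101321 (Irx1, minus strand), chr13:72766095-72766244 (Irx2, plus), chr13:73397795-73397944 (Irx4, plus), chr8:94325554-94325703 (Irx3, minus) and chr8:95198038-95198187 (Irx6, plus).
Irx1: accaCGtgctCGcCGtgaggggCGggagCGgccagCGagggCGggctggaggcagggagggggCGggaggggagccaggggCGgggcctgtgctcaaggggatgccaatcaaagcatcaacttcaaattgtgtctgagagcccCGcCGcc
Irx2: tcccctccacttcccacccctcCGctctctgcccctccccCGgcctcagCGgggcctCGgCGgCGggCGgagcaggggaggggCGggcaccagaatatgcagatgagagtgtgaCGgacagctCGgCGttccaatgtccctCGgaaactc
Irx4: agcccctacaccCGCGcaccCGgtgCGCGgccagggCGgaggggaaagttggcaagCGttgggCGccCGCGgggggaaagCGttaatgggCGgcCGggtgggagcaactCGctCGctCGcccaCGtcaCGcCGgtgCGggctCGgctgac
Irx3: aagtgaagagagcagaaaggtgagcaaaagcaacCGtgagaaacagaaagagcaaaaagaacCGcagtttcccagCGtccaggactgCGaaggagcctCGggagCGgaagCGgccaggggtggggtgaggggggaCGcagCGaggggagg
Irx6: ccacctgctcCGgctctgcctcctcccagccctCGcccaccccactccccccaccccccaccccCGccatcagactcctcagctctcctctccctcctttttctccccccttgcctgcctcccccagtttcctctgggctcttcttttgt
They held 11, 12, 21, 9 and 3 CG in the order shown. Over all 22351 protein-coding promoters with complete sequence the median of the same window was 6, and 87.4% held at least 1. Irx4 thus had the most CG of the 5 although its 4001 bp window was poorer than that of Irx3, and Irx6 had the fewest of the 5 in both windows.

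The genes whose marks most resembled each Irx gene were sought over 12 values, the percent of the window within 2 kb of the TSS covered in the 8 lists and of that within 10 kb in the 4 H3K27me3 lists, as the mean absolute difference in percentage points. For Irx5 these were Hes7 (1.41), Tbx1 (1.85) and Cbln1 (1.92), and for Irx3 Hes7 (2.70), Tbx1 (2.90) and Mn1 (2.96). Hes7 drives the segmentation clock and Tbx1 pharyngeal development. For Irx1 they were Vax2 (2.13), Matn4 (2.14) and Wnt3 (2.58), for Irx2 Zdbf2 (1.24), Gm13277 (1.28) and En2 (2.17), for Irx4 2410017I17Rik (0.760), Hoxa13 (1.09) and Epha8 (1.09), and for Irx6 Dusp8 (1.87), Jakmip1 (2.91) and Bach2 (3.11). Among the Irx genes Irx3 and Irx5 were closest to each other (3.02) and Irx3 and Irx4 farthest apart (20.5). Irx1 lay 4.30 from Irx2 and 6.02 from Irx4, and Irx2 lay 7.97 from Irx4. Each IrxA gene was thus nearer to the others of IrxA than to any IrxB gene. Irx6 was nearer to Irx2 (9.25) than to its cluster neighbours Irx5 (14.3) and Irx3 (16.7).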

How the data were processed

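Reads of 24 libraries were aligned to mm9 with Bowtie and enriched regions called by the authors with HOMER findPeaks in histone style, with H3 as input, a peak size of 1000 bp for H3K4me3 and 5000 bp for H3K27me3, and a fold of 4 over input. The deposited lists were taken as pooling both replicates. The score values, as deposited by the authors after peak calling, are 1 for every peak of the 6 lists with a header, were not transformed and carry no enrichment, so positions alone were used. The 2 pregranulosa lists had no header, so their depth is unknown and the settings above are not known to hold for them.

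Overlapping peaks were joined, which took the H3K27me3 lists of XY progenitors, XX progenitors and Sertoli cells from 36469, 74001 and 74154 peaks to 9693, 9309 and 13313 regions, while the pregranulosa list held 12609 peaks without overlap. Genes came from GENCODE M1 (NCBIM37), with the 5′ end of the gene as TSS. Coverage, overlap and sequence features were computed with Python 3.11.15 and NumPy 2.4.6, figures with matplotlib 3.10.9, and the interval steps were tested on simulated data. Named genes were the Irx genes, all genes of the clusters, 3 neighbours on each side, TALE genes, the 3 most alike genes per Irx gene, and cell type markers, Spi1 being matched through its RefSeq synonym. Some TALE genes and 1 upstream sequence are not reported here. Members and lists were chosen with earlier results of these data known. Alternatives were another overlap, window or start site, list reductions, region merging and wider spans. No test was run, since each condition has 1 list.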

Additional observations from a re-analysis of the deposited data

Results flagged for a closer look

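In both Irx clusters the share of bases covered went opposite ways in the XY lineage (XY progenitor to Sertoli cells) and the XX lineage (XX progenitor to pregranulosa cells). For H3K27me3 in IrxB it was higher by 9.91 percentage points in Sertoli cells than in XY progenitors, and in the XX lineage it fell by 0.592 points. In IrxA it fell by 4.16 points in the XY lineage and was higher by 2.42 points in the XX lineage. For H3K4me3 the differences were small, with 0.318 points more in the XY lineage while the XX lineage fell by 0.599 in IrxA, and 0.0718 more while the XX lineage fell by 0.0386 in IrxB. Relative to the chromosome the H3K27me3 directions did not differ. IrxB was covered 9.13 times as densely as its chromosome in XY progenitors and 5.60 times in Sertoli cells, against 9.24 and 5.22 in the XX lineage, and IrxA 7.47 and 3.44 times against 6.80 and 4.36. For H3K4me3 the same scaling gave falls in both lineages in IrxA, from 0.683 to 0.672 (XY) and from 1.04 to 0.861 (XX). In IrxB it turned both directions, from 1.18 to 1.02 in the XY and from 1.60 to 1.64 in the XX lineage. Without that scaling the opposite directions held under 7 of 7 alternatives for H3K27me3 in each cluster. For H3K4me3 the lineages went opposite ways under 5 of 7 in each. In IrxB these 5 include the merging of regions within 5 kb, where both directions were turned around, so the stated directions held under fewer. Each value compares 1 pooled list with another, and the difference between the lineages was not tested. The XY progenitor lists were the shallowest of those with known depth, and the part of depth was not tested.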

How the results depend on the processing

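Every Irx start site lies in an H3K4me3 region and H3K27me3 fills every window, so a larger overlap, a narrower window, every annotated start site or merging could not lower the counts of marked promoters. In H3K4me3 of XY progenitors the cut at the widest 75% falls among tied regions of 1001 bp, of which some were kept by position. With all regions of the width at the cut left out, an alternative chosen after seeing the data, the count there was 5 of 6 for H3K4me3 and for both marks, since Irx4 was lost, and 6 of 6 in the other populations. H3K4me3 cover in XY progenitors was then 1.03% against 1.64% in IrxA and 1.95% against 3.20% in IrxB, with 1.95% in IrxB under the planned cut as well. The other 109 of 112 cover values stayed within 1.5 times. Of 64 region widths at Irx3 and Irx5, recomputed under alternatives chosen after seeing the data, 56 stayed within 1.5 times and 8 grew on merging. No paired analysis was possible because each list was taken as pooling both replicates. Pooling also leaves the spread between replicates unknown, the constant score gives no strength of enrichment, and depth differed between lists.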
